A study of Mus musculus with 30 samples.

Results

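Heparanase, encoded by Hpse, and 9 further genes that build, carry, cut or use heparan sulfate were followed across 30 single mouse blastocysts. Hpse was selected by its values, since it was lower in the GM501 twin than in the SAGE twin of every pair. The other 9 genes were placed around it for their part in heparan sulfate biology, with earlier results of these data known. Of the 10 genes, 8 had an array feature, called a transcript cluster, listed under their symbol alone: Hpse, Sdc1, Sdc4, Hspg2, Agrn, Ext1, Ext2 and Hbegf. Each of the 8 had 1 such cluster, and all 8 were among the 18090 genes kept for testing out of 30142 with a named cluster. Ndst1 and Glce, which encode a sulfotransferase and an epimerase of heparan sulfate synthesis, had no cluster under a single symbol and were not analysed here. The same arrays that selected Hpse give its difference between the media, so that difference is described without a test.

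The blastocysts came from B6C3F1 × CD1 matings after stimulation with the hormones PMSG and hCG, and all began as zygotes fertilized in vivo. Twins were grown from embryos divided at the 2-cell stage: of each of 10 embryos, GM501 received 1 blastomere and SAGE 1-Step (SAGE below) the other, each in a well of its own. Both are media for human assisted reproduction. The 10 controls were left undivided and kept singly in KSOM(aa), a medium for mouse embryos in which the twins' embryos had also spent the time before division. Culture lasted 96 h and ended at 4 days post coitum, when a twin held roughly 40 to 50 cells and a control roughly 80 by the submitters' labels. Twins therefore differed from controls in medium, in division and in cell number, which cannot be told apart here. Numbers of matings or culture days are not given in the labels, so a p-value here covers only how these particular embryos varied.

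Values are log2 signals, so that differences are log2 fold changes, and they are relative within a cluster, so levels of different genes were not compared. Array medians ran from 4.81 to 5.28 in pairs 1 to 6 (12 arrays) and from 4.57 to 4.67 in pairs 7 to 10 (7 arrays), against 4.59 to 4.69 in controls. The exception in pairs 7 to 10 was the SAGE twin of pair 8, at 5.12. These sets come from the arrays themselves in an earlier analysis of the same values, and no label names a batch, so results are given for all 10 pairs and within each set. In RNA of whole embryos, fewer cells of a type and less RNA per cell cannot be told apart.

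Heparan sulfate is a long, sulfated sugar chain attached to core proteins at the cell surface, such as the syndecans, or in basement membranes, such as perlecan and agrin. The exostosins elongate the chain in the Golgi, sulfotransferases modify it, and heparanase, an endoglucuronidase, cuts it into fragments and so can release the growth factors bound to it. In the mouse blastocyst, heparan sulfate proteoglycans on the trophectoderm and the heparin-binding growth factor HB-EGF are known for their part in attachment to the uterus, and perlecan appears on the outer surface of embryos as they gain the ability to attach.

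Hpse, on chromosome 5 from 100679484 to 100719716 (GRCm38), was the gene whose pattern between the media selected this group. Its signal in GM501 twins was 5.73, 5.01, 4.89, 5.27, 6.16 and 6.06 in pairs 1 to 6 and 5.82, 5.03, 5.11 and 4.89 in pairs 7 to 10. In the SAGE twins of the same embryos it was 6.90, 5.53, 5.83, 7.47, 8.01 and 6.88 in pairs 1 to 6 and 6.60, 5.61, 8.37 and 7.30 in pairs 7 to 10. Controls had a lowest value of 6.02, a median of 7.495 and a highest of 8.65. GM501 twins thus held the low end of the scale and stayed within a narrow band, while SAGE twins spread over most of the range of the controls and beyond it at the low end. The GM501 values, with a median of 5.19, lay close to the medians of the same arrays over all clusters, 4.59 to 5.28. How far background signal sets this band, and with it the size of the differences, was not tested.

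The mean Hpse signal was 5.40 ± 0.50 in GM501 twins and 6.85 ± 0.98 in SAGE twins (SD, n = 10 each), a level 2.74-fold higher in SAGE. Within pairs the difference of GM501 minus SAGE averaged -1.45 with an SD of 0.93 over 10 pairs, and it ran from -3.26 in pair 9 to -0.52 in pair 2. The 3 pairs with the largest differences, pairs 9, 10 and 4, lay in both sets of pairs. Hpse was 1 of 11 genes, 0.0608% of those kept, that were lower in GM501 in all 10 pairs, a count that the selection fixes for Hpse itself. No gene of 18090 was called between the media (0% called by limma with the pair as a block, with 695 at an unadjusted p under 0.05).

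Epiblast markers also differed between the media on average, and their part in the Hpse difference was not tested. The mean log2 signal of the 4 markers had a lowest value of 7.38, a median of 8.65 and a highest of 10.2 in GM501 twins, against 7.20, 8.09 and 8.56 in SAGE twins. Between co-twins the mean differences, GM501 minus SAGE, were 0.56 for Fgf4, 0.47 for Sox2, 0.495 for Nanog and 0.46 for Pou5f1, with Fgf4 higher in GM501 in 8 of 10 pairs, Nanog in 7, and Sox2 and Pou5f1 in 6 each. All 4 were thus higher on average in GM501 twins, in which Hpse was lower in every pair by its selection. Like every other gene, none of the 4 was called between the media. The gap in epiblast medians was wider in pairs 7 to 10 (9.05 in GM501, 8.27 in SAGE) than in pairs 1 to 6 (8.14 and 7.99). Against controls, Nanog differed by -1.90 in GM501 and -1.43 in SAGE twins of pairs 1 to 6. In pairs 7 to 10 it differed by 0.25 and -1.70. Mean Hpse was lower in GM501 in both sets, at 5.52 against 6.77 and 5.21 against 6.97. Over all pairs the medians of the trophectoderm markers were 11.3 in GM501 twins and 11.3 in SAGE twins, and those of the primitive endoderm markers 8.81 and 8.92.

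**Figure D1:**
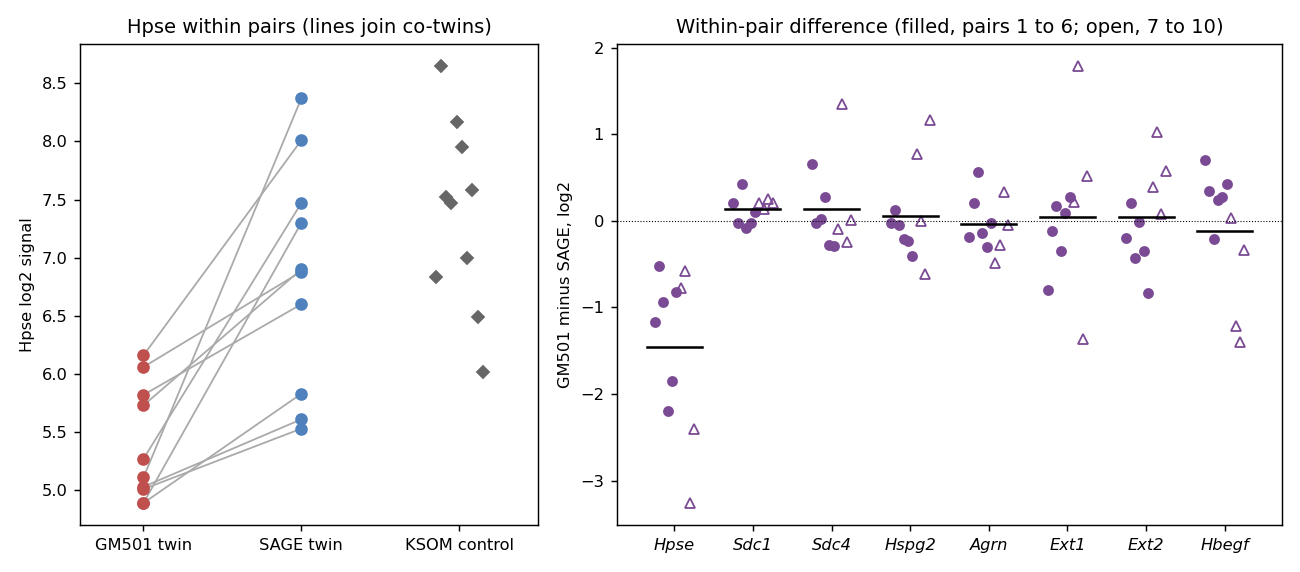
The left panel plots the Hpse log2 signal of each blastocyst, with lines joining the GM501 and SAGE twins of 1 embryo and controls at the right. The right panel plots GM501 minus SAGE in log2 units for each gene and pair (filled circles pairs 1 to 6, open triangles pairs 7 to 10, bar the mean of 10 pairs). All 10 Hpse differences lie below 0, from -3.26 to -0.52, while those of the other 7 genes lie on both sides of 0.

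Against controls, GM501 twins differed in Hpse by -1.97 log2 units and SAGE twins by -0.52, both given as descriptions because these arrays selected the gene, and both with the same 10 controls. Of the GM501 twins, 8 of 10 lay below every control, as did 3 of 10 SAGE twins. Hpse was tested against controls on the mean of the GM501 and SAGE twin of each pair. This mean does not use the difference within pairs, but it holds the low GM501 values by which Hpse was selected. Because GM501 twins varied less than SAGE twins, pair mean and pair difference are not independent. The adjusted p of this test is therefore not free of the selection. The pair means averaged 6.12 ± 0.62, against 7.37 ± 0.80 in controls (SD, n = 10 each), and 0 of 10 lay above the controls' median. The difference was -1.24 ± 0.30 (SE), 2.37-fold lower in twins, with an adjusted p of 0.0111 (limma, Benjamini-Hochberg over all 18090 genes).

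The Hpse difference between pair means and controls took similar values in both sets of pairs. Pairs 1 to 6 gave -1.22 ± 0.36 (SE, adjusted p = 0.00762). The 4 pairs from 7 to 10 gave -1.28 ± 0.40 (adjusted p = 0.163), which did not pass the test. With pair 8 left out of the second set, it was -1.02 ± 0.44 over 3 pairs (adjusted p = 0.393). The pair means join unlike twins, described here without a test. GM501 twins differed from controls by -1.85 in pairs 1 to 6 and -2.16 in pairs 7 to 10, and SAGE twins by -0.60 and -0.40. Without pair 8 the second set gave -2.09 in GM501 twins and 0.055 in SAGE twins.

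The promoters of Hpse and of 3 core protein genes, Sdc4, Hspg2 and Agrn, are shown because each was called lower in twins against controls. The 3 did not run closely with Hpse. Over the 30 arrays, each centred on its median, their Pearson r with Hpse was 0.33, 0.38 and 0.26. With each group also centred on its own mean it was 0.17, 0.15 and 0.01. The sequences are RefSeq's for GRCm38.p6, 1 window of 300 bases per gene, read 5′ to 3′ on the gene's own strand. Counted from the gene starts given in this text, the windows of Hpse and Sdc4 hold 250 bases before and 50 after, that of Hspg2 198 before and 102 after, and that of Agrn 205 before and 95 after. Capitals mark GGGCGG or its complement CCGCCC, the GC box letters to which factors of the Sp1 family bind. Hpse lies on the minus strand at chr5:100719667-100719966, Sdc4 on the minus strand at chr2:164443139-164443438, Hspg2 on the plus strand at chr4:137468553-137468852 and Agrn on the minus strand at chr4:156197439-156197738.
Hpse: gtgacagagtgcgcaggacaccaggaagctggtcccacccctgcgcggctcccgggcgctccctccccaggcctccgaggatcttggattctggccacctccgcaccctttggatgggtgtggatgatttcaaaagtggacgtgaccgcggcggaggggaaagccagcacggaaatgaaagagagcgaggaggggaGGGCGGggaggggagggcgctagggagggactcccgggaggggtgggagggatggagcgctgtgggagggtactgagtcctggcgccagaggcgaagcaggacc
Sdc4: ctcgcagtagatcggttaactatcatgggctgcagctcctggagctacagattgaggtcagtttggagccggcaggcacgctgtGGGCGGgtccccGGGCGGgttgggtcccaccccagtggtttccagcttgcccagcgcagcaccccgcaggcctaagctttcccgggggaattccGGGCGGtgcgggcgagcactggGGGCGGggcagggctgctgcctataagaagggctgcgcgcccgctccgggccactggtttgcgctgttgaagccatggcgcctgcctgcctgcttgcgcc
Hspg2: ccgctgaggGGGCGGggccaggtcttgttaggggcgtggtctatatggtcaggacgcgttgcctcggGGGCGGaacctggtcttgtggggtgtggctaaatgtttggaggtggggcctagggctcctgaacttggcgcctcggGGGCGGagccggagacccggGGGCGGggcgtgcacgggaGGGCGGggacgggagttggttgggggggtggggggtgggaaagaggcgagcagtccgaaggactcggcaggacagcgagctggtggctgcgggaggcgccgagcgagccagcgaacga
Agrn: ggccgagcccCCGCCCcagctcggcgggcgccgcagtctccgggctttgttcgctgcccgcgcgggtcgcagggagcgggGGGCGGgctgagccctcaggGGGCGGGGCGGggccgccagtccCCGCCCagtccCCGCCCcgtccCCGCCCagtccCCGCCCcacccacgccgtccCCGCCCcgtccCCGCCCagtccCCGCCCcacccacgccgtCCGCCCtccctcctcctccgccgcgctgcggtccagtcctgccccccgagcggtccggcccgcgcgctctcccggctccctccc
GC box letters, counted on both strands with overlaps allowed, stood at 1 place in the Hpse promoter, 4 in Sdc4, 5 in Hspg2 and 12 in Agrn. Of all 27025 promoters of the same length, 35.9% held at least 1. The 4 promoters were 67.0%, 67.7%, 70.3% and 83.3% G or C in the same order, against a median of 52.7% over all promoters, and had 19, 22, 27 and 42 CpG pairs, against a median of 7. The promoter of Sdc1, which was not called, held 3 GC boxes at 66.3% G or C, and that of Ext2 held none at 58.0%. The letters GCCNNNGGC, bound by AP-2 factors, stood at 1 place each in Hpse and Hspg2 and in 16.5% of all promoters. GGAATG of TEAD factors and CACGTG, the E-box, stood at 1 place each in Ext2 alone of these 6 (14.7% and 7.24% of all promoters), and AGATAA of GATA factors stood in none of the 6 (11.4% of all promoters). A match of letters is a description of the sequence and does not show that a factor binds there.

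Over all 8 genes, the comparison of twin pair means with controls asked how division and culture in the 2 media went with each transcript. In twins 4 of 8 were called lower, Hpse, Sdc4, Hspg2 and Agrn, where 11.4% of all genes were called lower. Hpse was selected by its values on these arrays, and the members were chosen with earlier results of these data known. The count beside this share is therefore a description. None of the 8 was called higher (14.2% of all genes were). The median difference of all genes tested was 0.11.

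Among the core proteins, Hspg2 (chromosome 4, 137468751 to 137570630) encodes perlecan, the large heparan sulfate proteoglycan of basement membranes. Its signal had a lowest value of 5.46, a median of 5.655 and a highest of 8.80 in GM501 twins, and 5.57, 5.845 and 8.69 in SAGE twins. Controls had 5.94, 8.26 and 8.92. Most twins therefore sat near the bottom of the scale and 9 of 10 controls well above it. Twins of pairs 1 to 6, at 5.46 to 5.91, lay little above the medians of their arrays, 4.81 to 5.28. How far background sets their signal, and with it the size of the difference, was not tested. Pair means averaged 6.40 ± 1.18, against 7.99 ± 0.86 in controls (SD, n = 10 each), a difference of -1.59 ± 0.43 (SE) or 3.01-fold lower in twins, at an adjusted p of 0.0174.

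Agrn (chromosome 4, 156165290 to 156197533) encodes agrin, a basement membrane proteoglycan best known from the neuromuscular junction. Its lowest, median and highest signals were 6.44, 6.715 and 9.09 in GM501 twins and 6.14, 6.865 and 9.25 in SAGE twins. In controls they were 7.64, 8.56 and 9.12. Twins fell into a low and a high cluster with no value between 6.92 and 7.73, and the high cluster overlapped the controls. The difference was -1.06 ± 0.35 (SE), 2.08-fold lower in twins, with an adjusted p of 0.0356. This call was lost when any 1 of pairs 1 to 6 or any 1 of controls 2, 4, 6 and 9 was left out, at adjusted p-values from 0.0501 to 0.0709.

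Sdc4 (chromosome 2, 164424247 to 164443188) encodes syndecan-4, a membrane-spanning proteoglycan of focal adhesions. Its lowest, median and highest signals were 12.02, 13.185 and 14.58 in GM501 twins and 12.04, 13.055 and 14.73 in SAGE twins. Controls kept to 13.90, 14.33 and 14.73. The controls were thus tight and the twins wide, with an SD of 0.98 for pair means and 0.20 for controls (n = 10 each). Pair means averaged 13.3, against 14.3 in controls, and the difference was -0.998 ± 0.299 (SE), 2.00-fold lower in twins, at an adjusted p of 0.0245.

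Sdc1 (chromosome 12, 8771396 to 8793716), which encodes syndecan-1 of epithelial cell surfaces, stayed in a narrow band on every array. It ran from 5.32 to 5.76 in GM501 twins and from 5.12 to 5.63 in SAGE twins, against 5.14 to 5.49 in controls. This is low on the arrays' scale, with array medians of 4.57 to 5.28 in twins and 4.59 to 4.69 in controls. How far background sets this flat signal was not tested. The difference was 0.10 ± 0.07 (SE, adjusted p = 0.271), with a 95% interval from -0.05 to 0.25.

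**Figure D2:**
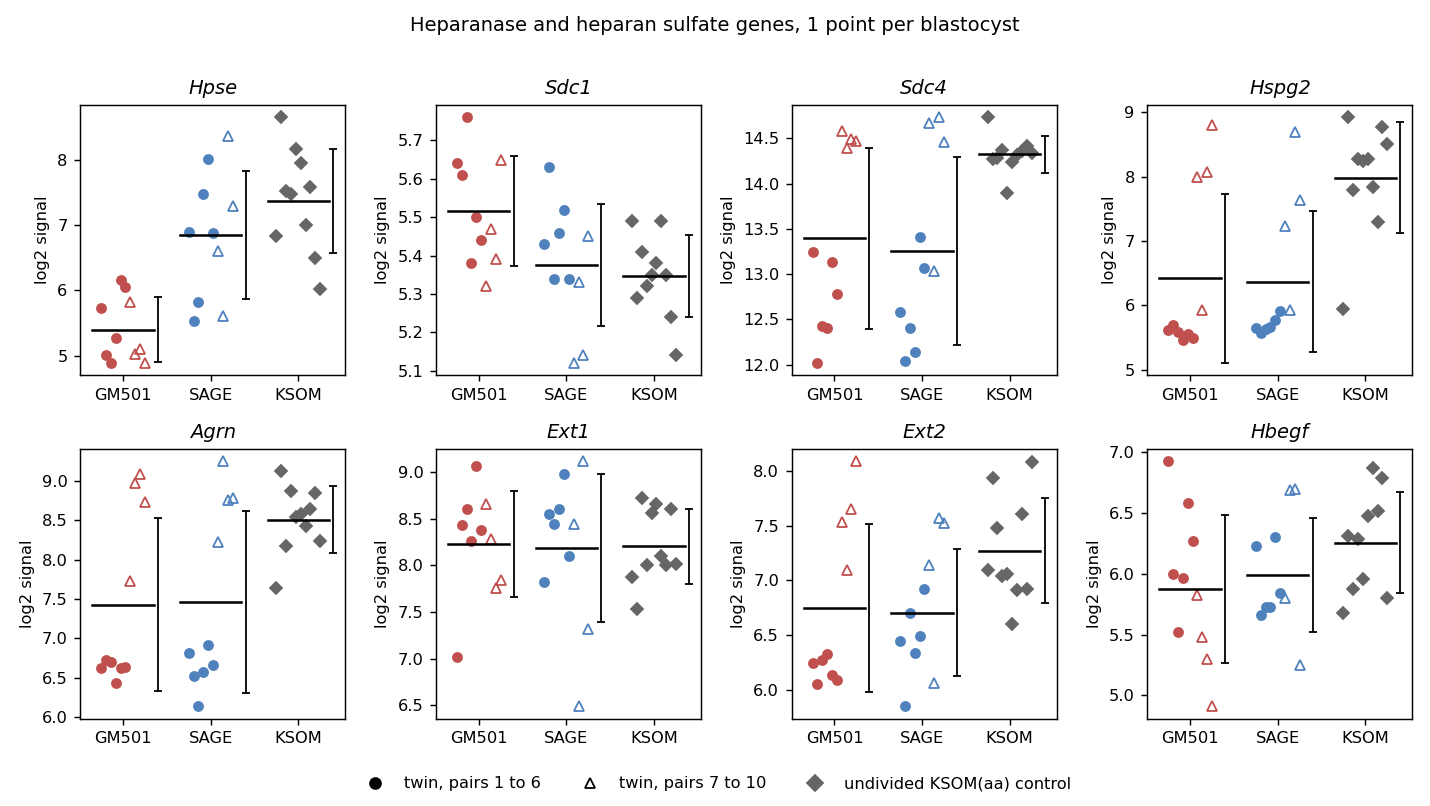
Each panel plots the log2 signal of 1 gene in every blastocyst, with GM501 and SAGE twins left of KSOM(aa) controls; each panel has its own axis. Filled circles are twins of pairs 1 to 6, open triangles twins of pairs 7 to 10 and diamonds controls; the black line is the mean and the bar beside it ± SD of 10 blastocysts. For Sdc4, Hspg2 and Agrn all 12 twins of pairs 1 to 6 lie below every control, while for Hpse the GM501 twins of both sets are low.

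Ext1 (chromosome 15, 53068261 to 53346183) and Ext2 (chromosome 2, 93695631 to 93822568) encode the partners that together form the polymerase of the heparan sulfate chain. Ext1 had a lowest, median and highest signal of 7.02, 8.33 and 9.07 in GM501 twins and 6.49, 8.44 and 9.12 in SAGE twins. Controls had 7.53, 8.06 and 8.72, so the groups overlapped over nearly all of their range. The difference in Ext1 was 0.00 ± 0.21 (SE, adjusted p = 0.997), with a 95% interval from -0.43 to 0.43, which leaves room for a change of that size either way.

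Ext2 had signals of 6.05, 6.30 and 8.09 (lowest, median, highest) in GM501 twins and 5.85, 6.595 and 7.57 in SAGE twins. Controls had 6.60, 7.075 and 8.08. Ext2 was at the low end in most twins and overlapped the controls in the rest. The difference of pair means was -0.55 ± 0.24 (SE) and did not pass over all 10 pairs (adjusted p = 0.0835). It passed when pair 9 was left out (adjusted p = 0.0336) or pair 10 (0.0237). It also passed with array weights (-0.78, adjusted p = 0.00297). These weights count a pair mean or control less the further its genes lie from the fitted group means, and use no separate measure of quality.

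Hbegf (chromosome 18, 36504927 to 36515805) encodes HB-EGF, an epidermal growth factor family ligand that binds heparan sulfate and the receptors EGFR and ERBB4. Its lowest, median and highest signals were 4.91, 5.90 and 6.93 in GM501 twins and 5.25, 5.82 and 6.70 in SAGE twins. In controls they were 5.68, 6.30 and 6.87, so all 3 groups overlapped, with 4 GM501 twins and 2 SAGE twins below every control. The difference was -0.32 ± 0.18 (SE, adjusted p = 0.164), with a 95% interval from -0.70 to 0.05.

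The falls in Sdc4, Hspg2 and Agrn stood in pairs 1 to 6. There all 12 twins lay below every control for each of the 3 genes, as did 10 of 12 for Ext2. The pair means of 4 of the 8 genes (Sdc4, Hspg2, Agrn and Ext2) lay wholly below the controls, where 9% of all genes did so. Of the 8 genes, 5 were called lower in this set, the selected Hpse among them (22% of all genes were). The differences were -1.68 ± 0.16 for Sdc4 (SE, adjusted p = 3.48e-07), -2.35 ± 0.33 for Hspg2 (1.66e-05), -1.89 ± 0.17 for Agrn (2.02e-07) and -0.95 ± 0.20 for Ext2 (0.000561), with Hpse as given above. The median difference of all genes in this set was 0.20.

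In pairs 7 to 10 none of the 8 genes was called, where 0.348% of all genes were called lower. Sdc4 had 14.58, 14.39, 14.49 and 14.47 in GM501 twins and 14.67, 13.04, 14.73 and 14.46 in SAGE twins, within the controls but for the SAGE twin of pair 8. Agrn had 7.73, 8.97, 9.09 and 8.73 in GM501 twins and 8.22, 9.25, 8.76 and 8.78 in SAGE twins, all at the level of the controls or above it. Hspg2 had 8.00, 5.93, 8.08 and 8.80 in GM501 twins and 7.23, 5.93, 8.69 and 7.64 in SAGE twins.

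Pair 8 was thus low in Hspg2 in both twins, just below the lowest control, and high in Agrn in both, so the 2 basement membrane genes parted in 1 embryo. The SAGE twin of pair 8, the array with the high median, was also the lowest of its set in Sdc4, Ext1 and Ext2. The differences in pairs 7 to 10 were 0.03 for Sdc4, -0.45 for Hspg2, 0.19 for Agrn, 0.06 for Ext2 and -0.51 for Hbegf (adjusted p from 0.370 to 0.971). Without pair 8 they were 0.24, 0.09, 0.05, 0.31 and -0.63 over 3 pairs, again with none called. The difference between the sets was not tested, since the sets were drawn from the arrays' own values.

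**Figure D3:**
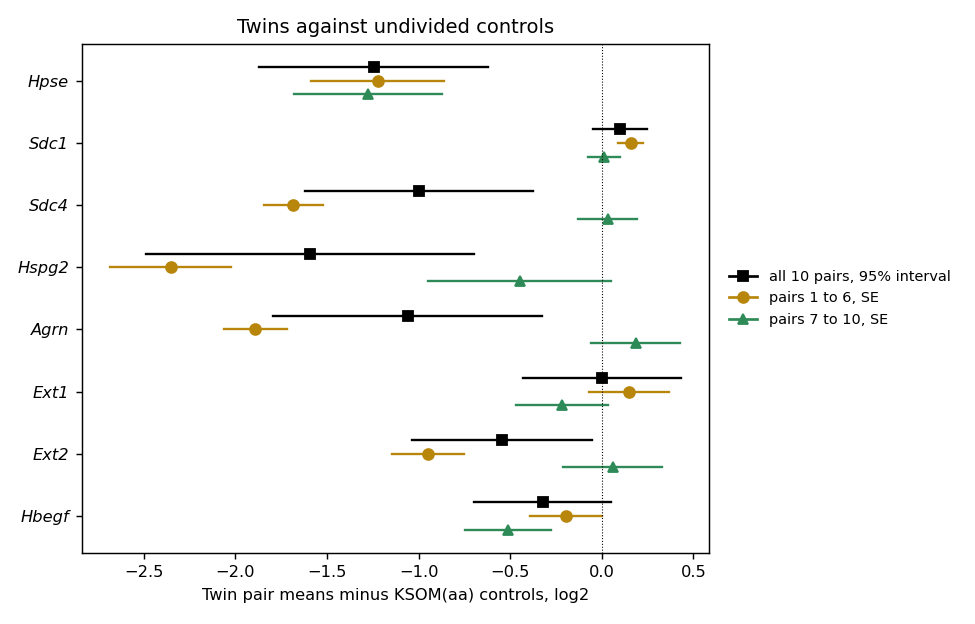
Points show twin pair means minus KSOM(aa) controls in log2 units for each gene: black squares all 10 pairs with a 95% interval, circles pairs 1 to 6 and triangles pairs 7 to 10 with ± SE. Hpse lies between -1.28 and -1.22 in all 3 fits, whereas Sdc4, Agrn and Ext2 lie below -0.9 in pairs 1 to 6 and near 0 or above it in pairs 7 to 10.

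For each medium alone, with the same 10 controls in both comparisons, 3 of the 7 genes that could be tested were called lower in GM501 twins and 2 of 7 in SAGE twins (6.97% and 8.63% of all genes were called lower). Sdc4 differed from controls by -0.93 ± 0.30 in GM501 twins (SE, adjusted p = 0.0475) and by -1.07 ± 0.31 in SAGE twins (0.0311). Hspg2 differed by -1.57 ± 0.46 in GM501 twins (0.0338) and by -1.62 ± 0.41 in SAGE twins (0.0180). Agrn differed by -1.08 ± 0.35 in GM501 twins (0.0457) and by -1.04 ± 0.36 in SAGE twins (0.0532), where it was called once pair 8 was left out (-1.24, adjusted p = 0.0215). Sdc1, Ext1, Ext2 and Hbegf were not called in either medium over all pairs. Within pairs 1 to 6, Sdc4, Hspg2, Agrn and Ext2 were called lower in each medium, 4 of 7, where 21.1% of all genes were lower in GM501 twins and 19.9% in SAGE twins. In the same set Sdc1 was called higher in GM501 twins (0.21, adjusted p = 0.0319), as were 38.3% of all genes.

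Between co-twins the 7 genes other than Hpse showed no common direction. Agrn was lower in GM501 in 7 of 10 pairs, with a mean difference of -0.04 and an SD of 0.32. Hspg2 was lower in 6 pairs, higher in 3 and equal in 1 (mean 0.05, SD 0.53), and Sdc1 was higher in 7 pairs (mean 0.14, SD 0.15). Sdc4 and Ext2 were each lower in 5 pairs (means 0.14 and 0.05), and Ext1 and Hbegf each in 4 (means 0.04 and -0.11). The widest differences outside Hpse were those of Ext1 in pair 8 (1.79), Hbegf in pair 9 (-1.40), Ext1 in pair 9 (-1.36) and Sdc4 in pair 8 (1.35). For these 7 genes the mean difference between the media was smaller than the SD of the 10 differences, though only just so for Sdc1. That SD describes the spread of single pairs and not the precision of their mean. Since the contrast selected Hpse, no member was tested on it.

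Whether co-twins were alike was asked with limma's F test over the 10 embryos of origin, with medium in the model. It called 4 of the 8 genes, Sdc4 (adjusted p = 0.00126), Hspg2 (0.000592), Agrn (7.54e-05) and Ext2 (0.0190), where 26.4% of all genes were called. Hpse did not pass (0.178), and neither did Sdc1 (0.521), Ext1 (0.191) or Hbegf (0.288). These calls ran with the sets of pairs: within pairs 1 to 6 and within pairs 7 to 10 none of the 8 was called (0.243% and 0.0663% of all genes were). Within pairs 1 to 6, where Hspg2 spanned only 5.46 to 5.91 over 12 arrays, Hpse pair means still ran from 5.27 to 7.085.

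The other genes of the pathway were counted by role, and each count in the pair means stands against the 11.4% of all genes called lower and 14.2% called higher. Of 13 further core protein genes 6 were tested, and 0 were called against controls in the pair means, with a median difference of 0.00. Gpc4, a glypican on a lipid anchor, was named after its values were seen: it was called in GM501 twins (-1.64 ± 0.47, SE, adjusted p = 0.0292) and differed by -0.11 in SAGE twins (0.895). In pairs 1 to 6 the differences were -1.78 in GM501 twins (0.00683) and 0.83 in SAGE twins (0.145), while in pairs 7 to 10 they were -1.42 (0.308) and -1.51 (0.213), so GM501 and SAGE twins lay apart in the first set and close together in the second. Between co-twins it was lower in GM501 in 7 of 10 pairs, with a mean difference of -1.53.

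Of 28 genes of chain synthesis 19 were tested, of which 2 were called lower, a share near the 11.4% of all genes, and 0 higher, with a median of -0.07. Extl3, which starts the chain on its linker, had 7.19 ± 0.64 in pair means and 8.26 ± 0.39 in controls (SD, n = 10 each), a difference of -1.07 ± 0.22 (SE, adjusted p = 0.00639). Hs6st1, a 6-O-sulfotransferase, differed by -0.68 ± 0.25 (0.0477). Within pairs 7 to 10 they differed by -0.53 and 0.10, and neither was called. Slc35b3, a gene of this list, was also named after its values were seen. Between co-twins it was lower in GM501 in 9 of 10 pairs, with a mean difference of -0.88, while Extl3 and Hs6st1 were each higher in GM501 in 7. Against controls Slc35b3 was not called in either medium over all pairs. In pairs 1 to 6 it was called higher in SAGE twins (0.90, adjusted p = 0.0193), as were 38.9% of all genes.

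Of 12 genes of trimming and breakdown 7 were tested, of which 2 were called lower and 0 higher, with a median of -0.40. Hgsnat, a lysosomal acetyltransferase that acts on the chain's glucosamine, had 7.05 ± 0.49 in pair means and 7.91 ± 0.37 in controls (SD, n = 10 each), a difference of -0.86 ± 0.19 (SE, adjusted p = 0.00722). Sulf2, an extracellular sulfatase that removes 6-O-sulfates, differed by -0.59 ± 0.20 (0.0360). In pairs 7 to 10 they differed by -0.52 and -0.05, and neither was called. Hpse2, the relative of Hpse that lacks its enzyme activity, was not among the genes kept for testing.

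Of 9 partners of HB-EGF 5 were tested, and 4 were called lower with 0 higher, at a median of -0.67. Erbb3 and Erbb2, receptors of the same family, differed by -1.63 ± 0.46 (SE, adjusted p = 0.0207) and -1.03 ± 0.30 (0.0216). Adam17, a protease that sheds HB-EGF from the membrane, differed by -0.67 ± 0.21 (0.0272), and Cd9, a tetraspanin that associates with the membrane form, by -0.36 ± 0.10 (0.0204). In pairs 7 to 10 the first 3 differed by -0.07, -0.14 and -0.02 and were not called, while Cd9 was (-0.51, adjusted p = 0.0455). Egfr and Erbb4, which bind HB-EGF directly, were not among the genes kept for testing.

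**Figure D4:**
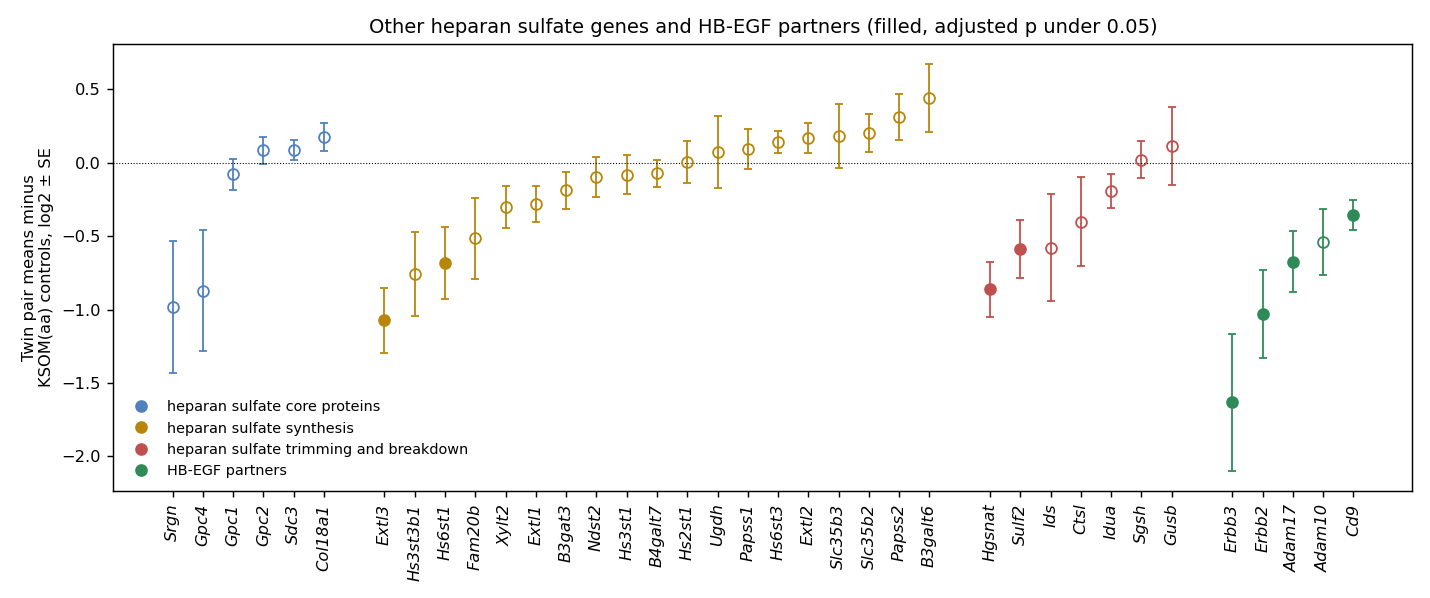
Points show twin pair means minus KSOM(aa) controls in log2 units, with ± SE, for each tested gene of the 4 lists. Filled points passed the test over all genes (adjusted p under 0.05): 2 synthesis genes, 2 breakdown genes and 4 HB-EGF partners, all lower in twins, and none of the 6 further core proteins.

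Lineage markers moved with the sets in which Sdc4, Hspg2 and Agrn were low, and their part in these results was not tested. The mean log2 signal of 6 trophectoderm markers ran from 10.5 to 11.4 in twins of pairs 1 to 6 and from 11.4 to 12.1 in pairs 7 to 10, against 11.9 to 12.3 in controls. In the pair means 5 of the 6 were called lower (11.4% of all genes were). The mean of 6 basement membrane genes (laminin and collagen IV chains and Sparc) ran from 7.63 to 8.45 in pairs 1 to 6 and from 7.72 to 10.1 in pairs 7 to 10, against 8.66 to 10.4 in controls, with 4 of 6 called lower. Lama1, a laminin chain of the embryo's first basement membranes, differed by -2.63 ± 0.53 (SE, adjusted p = 0.00568) and Lamc1 by -2.30 ± 0.56 (0.0114).

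In the pair means 3 of 4 epiblast markers and 2 of 4 primitive endoderm markers were called lower (11.4% of all genes were). For each medium alone, 0 of 4 epiblast markers were called in GM501 twins and 3 of 4, all lower, in SAGE twins (6.97% and 8.63% of all genes were lower). Pou5f1, Nanog and Sox2 differed by -0.69, -1.04 and -0.56 in GM501 twins and by -1.14, -1.54 and -1.03 in SAGE twins. In pairs 1 to 6 these 3 were called lower in both media (adjusted p of at most 0.0057), as were 21.1% and 19.9% of all genes. In pairs 7 to 10 no epiblast marker was called in either medium. Of markers of maternal cells, 1 of 3 tested cumulus and oviduct genes was called higher (14.2% of all genes were), and 0 of 1 blood and immune gene was called. The gene called was Tnfaip6 (0.32 ± 0.09, SE, adjusted p = 0.0210), at a low signal of 4.95 in pair means and 4.63 in controls. It differed by 0.44 in pairs 1 to 6, where 42.1% of all genes were called higher. In pairs 7 to 10 it differed by 0.14 and was not called (adjusted p = 0.59). The trophectoderm markers had a mean signal of at least 10.5 on every array.

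The genes whose signal ran most like that of Hpse over the 30 arrays, after each array was centred on its median, were taken from all 18089 others as a description. Efna1, an ephrin ligand, came first with a Pearson r of 0.81, followed by Reps2 (0.72), Nid2 (0.71), Aprt (0.70) and Rab11fip1 (0.68). These points share the differences between the 3 groups, and with each group centred on its own mean r was 0.68 for Efna1 and from 0.47 to 0.52 for the other 4. Efna1 averaged 5.98 in GM501 twins and 7.06 in SAGE twins, with 7.59 in controls, and was lower in GM501 in 9 of 10 pairs. Among the other members the highest r with Hpse was 0.38, for Hbegf, and the lowest was -0.41, for Sdc1. Those of Hspg2, Sdc4, Agrn, Ext2 and Ext1 were 0.38, 0.33, 0.26, 0.24 and 0.16. With groups centred, r was 0.31 for Hbegf, 0.29 for Ext1, -0.10 for Sdc1 and between 0.01 and 0.17 for the other 4.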

How the data were processed

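RNA of 30 single blastocysts was measured on 1 array each. The deposited values are log2 signals of 65956 transcript clusters, made by the authors with RMA in Affymetrix Expression Console on mm10, per the submitters' processing notes. No label states the log base, and base 2 fits the values' range and RMA's scale. After RMA's background correction, normalization and probe summary, the signals count no molecules. RNA was amplified and labelled with the GeneChip WT Pico kit, per the labels' protocols, and that amplification may add spread between arrays. Precision is limited by the number of arrays.

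Of 32750 clusters with a listed gene, 30604 carried 1 symbol (827 updated by gene ID to GRCm38.p6) and 2146 several, which were not used. For a gene with several clusters, the one with the highest mean was taken, and the upper 60% of genes by mean were kept (means of at least 4.80). Groups and pair numbers came from the titles, and pair numbers mark twins of 1 embryo, per the labels. Partners correlated at r from 0.163 to 0.696 across genes, and for 7 of 10 GM501 twins the own partner correlated best.

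Tests used limma 3.58.1 in R 4.3.3 (lmFit, eBayes, two-sided), with Benjamini-Hochberg adjustment over all 18090 genes, a call at an adjusted p under 0.05 and moderated SEs, and were tested on simulated data. Twins were compared with controls on 10 pair means, each medium was compared with controls on 20 arrays, and the media were compared with the pair as a block. The alternatives were centring each array on its median, no filter on low values, trend and robust fitting, array weights, the embryo as a random block, sets of pairs and leaving out single pairs or controls. All members were named. Of the other pathway lists, genes called in pair means were named, up to 6 a list, and the 5 genes with the highest r to Hpse. The members and lists were chosen with earlier results of these data known.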

Additional observations from a re-analysis of the deposited data

How the results depend on the processing

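The counts of members called depended on the set of pairs. Against controls, 4 members were called in pair means, 3 in GM501 twins and 2 in SAGE twins. Within pairs 7 to 10 it was 0 in each, and 0 again without pair 8, a setting added after seeing the data. Within pairs 1 to 6 it was 5 in GM501 twins, of which Sdc1 was higher, and 4 in SAGE twins, where 59.4% and 58.8% of all genes were called. Array weights gave 4 in SAGE twins. The embryo of origin, with 4 called, gave 0 in either set. The cause was not tested, and smaller sets have fewer arrays.

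Differences that changed sign were those of pairs 7 to 10, none called, and of Ext1 in further fits. In pair means they were 0.032 for Sdc4, 0.19 for Agrn, -0.22 for Ext1 and 0.059 for Ext2, and without pair 8 they were 0.24, 0.046, -0.018 and 0.31, with -0.001 for Sdc1 and 0.087 for Hspg2. In GM501 twins they were 0.16 for Sdc4, 0.12 for Agrn, -0.073 for Ext1 and 0.32 for Ext2, and without pair 8 they were 0.19, 0.011, -0.12 and 0.48, with 0.31 for Hspg2. In SAGE twins they were -0.086 for Sdc1 and 0.25 for Agrn, and without pair 8 they were -0.11 and 0.081, with 0.30 for Sdc4, 0.085 for Ext1 and 0.14 for Ext2. Hpse, not tested in SAGE twins alone, was 0.055 there without pair 8. Ext1 in SAGE twins, at -0.02 in the reported fit, was 0.0245 after centring, 0.078 with array weights, 0.21 in pairs 1 to 6 and 0.17 without pair 8 in all pairs.

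Leaving out 1 pair or control at a time gave 3 to 5 members called in pair means, and Ext1 ran from -0.0897 to 0.0926. Between the media, 0 genes were called with the pair as a block and 0 with no replicate block (695 and 225 at an unadjusted p under 0.05). Centring, the filter, trend and robust fitting and the random block left the count in pair means at 4, and array weights gave 5. The other-cluster setting gave no value, since each member had 1 cluster.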
